A study of Mus musculus with 2 samples.

Results

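Proximal-type luminal cells of the DoubleTg mouse prostate were 803 cells of 1 single-cell RNA-seq library, out of 21564 cells in the series. They were picked by their own transcripts. A member had more than 200 and fewer than 7000 detected genes, under 15% mitochondrial UMIs, at least 1 UMI of the epithelial gene Epcam, 0 UMIs of the leukocyte gene Ptprc, and at least 2 UMIs each for at least 4 of the 6 genes Psca, Ly6d, Aldh1a3, Ctse, Areg and Msln. Per 10000 UMIs of the cell it also stayed below 20 for the basal keratins Krt5, Krt14 and Krt15 together, below 50 for Msmb, below 50 for Pbsn and below 1000 for Sbp and Sbpl together. A UMI, or unique molecular identifier, marks 1 captured RNA molecule. Members made up 9.49% of the 8458 DoubleTg epithelial cells within these limits (exact binomial 95% interval 8.88% to 10.1%).

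DoubleTg mice carried hHGFtg, a human HGF transgene expressed throughout the body, and hMETtg, a human MET cDNA at the H11 locus that is silent until Cre removes a stop cassette. Cre came from PBCre, a line driven by the androgen-dependent probasin promoter, so hMETtg is switched on only in cells in which that promoter was active and in their descendants. TripleTg mice, used here for 1 comparison, carried these alleles together with a Ctnnb1 allele from which the same Cre deletes exon 3, which leaves a stabilised β-catenin. Both tissues were prostate tumours, labelled adenocarcinoma in DoubleTg and carcinoma in TripleTg, from mice of mixed C57BL/6 and C3H SCID background whose age is not stated for these libraries. The tissue was digested in medium with dihydrotestosterone and a kinase inhibitor. There was 1 library per genotype and no mouse without hMETtg, so no value has a replicate check and every interval covers counting error only.

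The prostate duct changes along its length. Near the urethra, luminal cells carry Psca, Krt4 and Ly6 family surface proteins and make little secretory protein, whereas distal luminal cells carry Hoxb13 and secrete the proteins of each lobe. Proximal luminal cells are known for forming organoids and for tolerating androgen loss, and basal cells with Krt5, Krt14 and Trp63 lie beneath both.

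Members held a median of 41235 UMIs and 5350 genes. The classes they were compared with were also picked by transcripts, namely ventral-type cells with high Sbp (625 cells, median 55403 UMIs), dorsal-type cells with high Pbsn (362 cells, 32906 UMIs), Msmb-high cells (1317 cells, 34933 UMIs) and basal cells with high Krt5, Krt14 and Krt15 (2046 cells, 13271 UMIs). The ventral-type, dorsal-type and Msmb-high cells are together called secretory luminal cells (2304 cells). A further 3250 epithelial cells (median 19539 UMIs) met the other limits but had fewer than 4 of the 6 genes. They are not among the compared classes. Markers of proximal luminal cells outside the rule made up 3.92% of their UMIs, 6.26% in members and 3.53% in Msmb-high cells. Immune cells with Ptprc and without Epcam (336 cells, 7676 UMIs) gave the level at which epithelial RNA reached cells of another kind. Levels are UMIs summed over the cells of a class per 1000000 UMIs of that class (CPM). Of the members, 19 were marked as likely doublets by Scrublet, and 1 had a barcode that also occurred in the TripleTg library, out of 30 barcodes that the libraries shared. Cells of all these classes came from 1 digest, so all differences between DoubleTg classes compare cells within a library and were not tested.

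The genes of the rule were high in members by construction. Psca, a GPI-anchored surface antigen, was at 1629 CPM in members against 111 in ventral-type, 47.7 in dorsal-type, 320.2 in Msmb-high and 353 in basal cells. Areg, a ligand of the EGF receptor, was at 908 CPM and Ly6d, a Ly6 family antigen, at 616 CPM. Aldh1a3, which makes retinoic acid, was at 307 CPM, the aspartic protease gene Ctse at 159 CPM and mesothelin, Msln, at 82.1 CPM. Msln was the least common of the 6, with a UMI in 41.3% of members, and Areg the most common, in 97.8%. Of the members, 381 had 4 of the 6 genes, 313 had 5 and 109 had 6. Depth rose with this number, with medians of 36173, 45505 and 54212 UMIs. The rule counts UMIs, so deeper cells could meet it more easily. Members with 4 genes lay just inside the limit, with Psca at 1471 CPM, Ly6d at 278 and Areg at 758. A further 415 cells had 3 genes and met every other limit, and in these Psca was at 1077 CPM, Ly6d at 101 and Areg at 577. Their hMETtg levels were 708 CPM with 3 of the genes, 774 with 4, 823 with 5 and 797 with 6. In all, 131 cells with at least 4 genes were left out by the limits on basal keratins, Msmb, Pbsn or Sbp.

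Of 19 markers of proximal luminal cells that the rule did not use, 8 were highest in members among the 5 epithelial classes compared. Clu, which encodes the secreted chaperone clusterin, was at 42602 CPM in members, 1621 in ventral-type, 4591 in dorsal-type, 21577 in Msmb-high and 4111 in basal cells. The ratio to secretory luminal cells was 1.79 on the log2 scale. Ly6a, or Sca-1, stood at 2504 CPM against 1100.1 in Msmb-high cells, the nearest class, and Wfdc2, a secreted protease inhibitor, at 1080.3 CPM against 682 in basal cells, the nearest. Krt7, a simple epithelial keratin, was at 568 CPM and was a little higher in basal cells, at 671 CPM. Krt4 was at 128 CPM against 77.9 in Msmb-high cells. Other members of the list went the other way. Nupr1, a stress-induced nuclear protein, was at 460.5 CPM in members against 3644 in ventral-type cells, Cldn10 at 36.8 against 253 in Msmb-high cells, and Prom1 at 3.23 against 47.8 in dorsal-type cells.

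**Figure D1:**
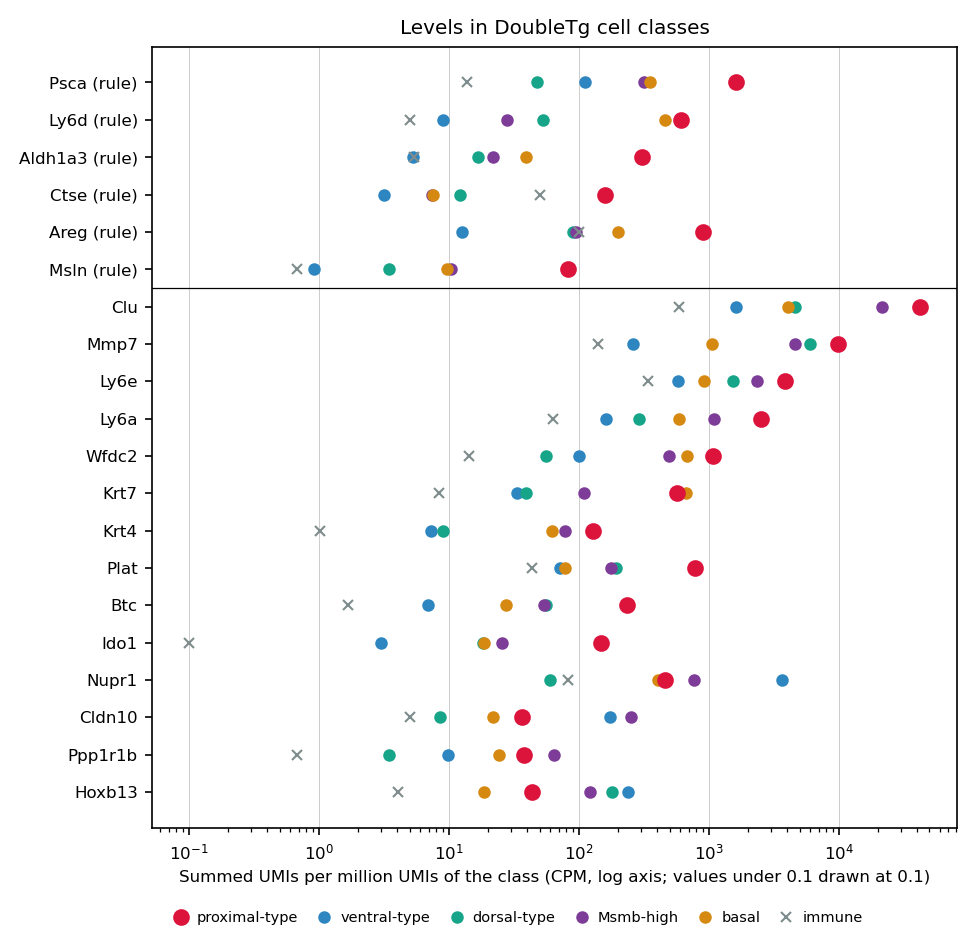
Level of each gene in 6 DoubleTg cell classes, as CPM on a log axis, with the 6 genes of the membership rule above the line and other proximal and luminal markers below it; points stand for 1 summed class each and have no replicate. Proximal-type cells (large red points) were highest for Clu, Mmp7, Ly6a and Plat, level with basal cells for Krt7, below all secretory classes for Hoxb13, and below some of them for Nupr1 and Cldn10.

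Of the 19 listed proximal markers, 17 reached 5 CPM in members or secretory luminal cells, and of these 8 were at least 2-fold higher in members and 3 at least 2-fold lower. The same call was made for 7.71% of all 8624 genes upward and 3.34% downward, and the median ratio of all genes was 0.25 on the log2 scale. Markers of other cells were low for leukocytes and neuroendocrine cells but not for basal or urothelial cells. The 7 basal genes summed to 351 CPM in members, 135 CPM in secretory luminal cells and 3408 CPM in basal cells, and 4 of 5 measured ones, Krt17, Col17a1, Itgb4 and Cldn1, were at least 2-fold higher than in secretory luminal cells with 0 lower. Col17a1, at 7.58 CPM, was at 3.41 CPM and out of the measured genes without a sub-cluster of 54 members that is described with the sub-clusters. The 7 urothelial genes summed to 389.6 CPM in members against 203 CPM in secretory luminal cells, with 3 of 4 measured ones, Upk1b, Upk2 and Krt20, higher. Krt20 was at 5.21 CPM and without 1 cell at 2.83 CPM, which is under the 5 CPM limit. The 8 immune markers summed to 11.1 CPM in members against 6657 CPM in immune cells, Trp63 had a UMI in 0.996% of members, and Chga, Chgb and the urothelial gene Upk3b had 0 UMIs in 803 cells, which allows a share of up to 0.374% of cells with a UMI. More of the proximal markers that passed the limit were higher in members than lower, with Msmb-high cells as the nearest of the compared classes for Clu, Ly6a and Krt4.

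Keratin and cornified envelope genes were among those higher in members than in the pooled secretory luminal cells. Cornified envelope proteins form the tough rim of stratified epithelia. Of 9 stratified epithelium genes that reached 5 CPM, 8 were at least 2-fold higher in members and 0 lower, with a median of 2.38. Dorsal-type cells were closer than the pool. The 16 listed genes made up 0.572% of UMIs in members, 0.369% in dorsal-type, 0.109% in Msmb-high and 0.0218% in ventral-type cells. Krt6a, a keratin of wounded and hyperproliferative epithelium, was at 825 CPM in members, 22.0, 149.6 and 294 in ventral-type, dorsal-type and Msmb-high cells, and 352 in basal cells. Sprr1a, a cornified envelope precursor, was at 4009 CPM in members and nearly as high in dorsal-type cells, at 3385 CPM. Sprr2a3 was at 531 CPM against at most 79.7 CPM in the other 4 classes; its near-identical Sprr2a neighbours can share its reads. Involucrin, Ivl, was at 95.8 CPM and detected in 42.1% of members. Krt1, Krt10 and Lor stayed at 2.21, 4.81 and 6.20 CPM, and Sprr3 had 0 UMIs. Simple epithelial keratins were abundant, with Krt8 at 6609, Krt19 at 5957 and Krt18 at 4534 CPM.

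Uroplakins, the membrane plaque proteins of the bladder lining, were present in part. Upk1a was at 228 CPM in members and 212 in Msmb-high cells, which is close, and Upk1b was at 121 CPM against 90.4 in dorsal-type cells. Upk2 was at 29.3 CPM against at most 7.03 CPM in the other 4 classes. Upk3a was at 1.58 CPM. Of the Krt20 UMIs 45.7% came from 1 cell.

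Of the EGF receptor ligands other than Areg, Btc, Ereg and Tgfa were at least 2-fold higher than in secretory luminal cells. Betacellulin, Btc, was at 235 CPM in members against 6.95, 56.3 and 54.5 in the ventral-type, dorsal-type and Msmb-high classes and 27.5 in basal cells. Epiregulin, Ereg, was at 82.3 CPM against 0.946, 9.02 and 5.37, while basal cells had 63.3 CPM. Tgfa was at 52.9 CPM and close to basal cells, at 49.6 CPM. Hbegf, the most abundant of these ligands apart from Areg, was at 521 CPM in members, 374 in ventral-type cells, the lowest of the other 4 classes, and 893 in basal cells, the highest. Egf was lower in members, at 18.8 CPM against 68.7, 174 and 74.3. Of the receptors, Egfr was at 65.2 CPM, between Msmb-high cells at 36.1 and basal cells at 131. In all, 4 of 10 measured genes of this family, the 3 ligands and Egfr, were at least 2-fold higher than in secretory luminal cells and 2 lower.

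The transgene hMETtg was higher in members than in any of the other classes compared. It stood at 798 CPM (95% interval 789 to 808) in members, 506 in Msmb-high, 332 in dorsal-type, 157 in ventral-type and 76.6 in basal cells, against 15.5 CPM in immune cells. Each cell was thinned to 5000 UMIs to compare shares, which 802 members allowed. At that depth 88.7% of members had an hMETtg UMI (86.3% to 90.8%), followed by Msmb-high cells at 74.8%, dorsal-type at 49.6%, ventral-type at 34.9% and basal cells at 10.1%. This order leaves out the epithelial cells outside the compared classes, of which 2500 could be thinned and 1065 had 0 hMETtg UMIs. Immune cells gave 7.55% (4.74% to 11.3%), so the basal share overlapped this background. Some basal cells stood above it, with up to 8 hMETtg UMIs in a thinned cell, against at most 2 in immune cells. Without thinning the share of members was 97.4%. Endogenous Met was also highest in members, in an order that differed in the place of basal cells, with 201 CPM in members, 121 in Msmb-high, 110.0 in basal, 109 in dorsal-type and 36.2 in ventral-type cells. Over the 802 thinned members the Spearman correlation of hMETtg with Met was 0.30, a description of cells of 1 library. Reads that match both Met and hMETtg could not be separated in these counts.

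**Figure D2:**
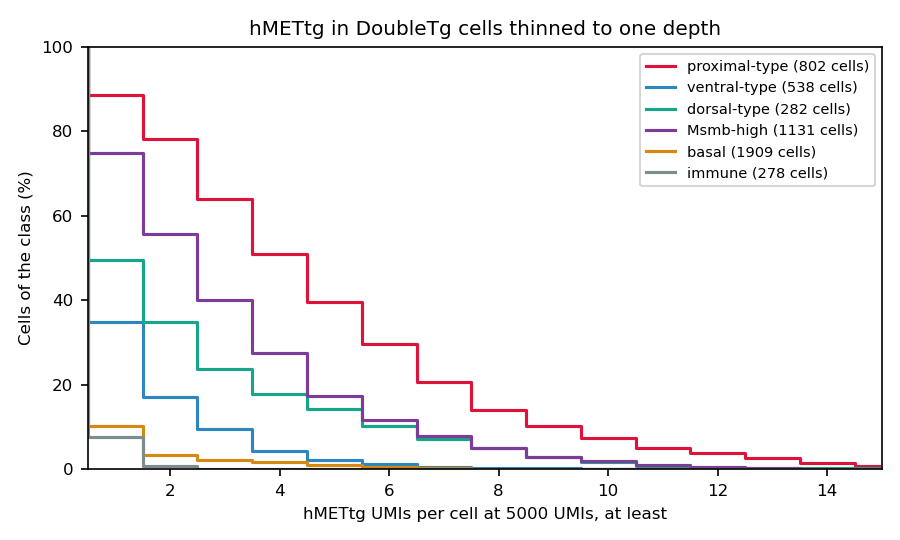
Share of cells (%) with at least the number of hMETtg UMIs on the horizontal axis, after each cell was thinned to 5000 UMIs, for 6 DoubleTg classes with the number of cells in brackets. The line of proximal-type cells starts at 88.7% and lies above all others, and the lines of basal cells (10.1%) and immune cells (7.55%) start close together.

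HGF is the ligand of MET and is cut into its active form outside the cell. Hgf was at 33.7 CPM and hHGFtg at 244 CPM in members, both below basal cells, where hHGFtg was at 625 CPM. Spint1 and Spint2, inhibitors of the proteases that activate pro-HGF, were at 332 and 1492 CPM, against 213 and 1086 in the nearest of the other 4 classes. The activating protease matriptase, St14, was at 161 CPM and level with dorsal-type cells, at 166 CPM. Of 9 measured genes of this list 4 were at least 2-fold higher than in secretory luminal cells and 0 lower.

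Some feedback genes of MAPK signalling were higher. The phosphatase genes Dusp4, Dusp5 and Dusp6 passed the 2-fold limit over secretory luminal cells, 3 of 10 measured feedback genes with 0 lower. Dusp5 was at 229 CPM against 34.3, 198 and 103, and Dusp6 at 164 CPM against 16.5, 34.3 and 132, so that the nearest class was less than 2-fold away in both. Etv4 and Etv5 were near 0, at 1.08 and 0.283 CPM.

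The study followed 5 genes as targets of β-catenin, and Mmp7, Plaur and Cd44 were at least 2-fold higher than in secretory luminal cells with 0 lower. Mmp7, a matrix metalloproteinase, was at 9925 CPM in members against 6039 in dorsal-type, 4584 in Msmb-high, 1059.8 in basal and 262 in ventral-type cells. Plaur, the urokinase receptor, was at 694 CPM, above every secretory class and below basal cells at 1164 CPM. Cd44 stood at 441 CPM and Sox9 at 614 CPM, the latter just below Msmb-high cells at 654 CPM. Tcf7l2, a transcription factor that β-catenin binds, was at 113 CPM. Of the other Wnt targets 3 reached 5 CPM in either class, of which Ccnd1 was higher in members at 1.85 on the log2 scale and Sp5 was lower. Axin2 was at 2.29 CPM with a UMI in 8.09% of members, below its level in immune cells of 10.1 CPM, and Nkd1, Notum, Lgr5 and Lef1 were each under 1 CPM.

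Antigen presentation genes were among the most abundant differences. B2m, the light chain of MHC class I, was at 7700.3 CPM in members, 4229 in dorsal-type, 3464 in Msmb-high, 939 in basal and 605 in ventral-type cells. It was higher in members than in immune cells, at 2341 CPM. H2-K1 was at 2037 CPM in members against 1406 in Msmb-high and 1984 in immune cells. The class II genes H2-Aa and Cd74 were at 45.2 and 158 CPM in members and 12.5 and 42.9 in Msmb-high cells, against 8364 and 21371 CPM in immune cells, and Ciita, their activator, was at 0.0283 CPM. Of 12 measured genes of the list, 5 were at least 2-fold higher than in secretory luminal cells and 0 lower, namely B2m and the class II genes H2-Aa, H2-Ab1, H2-Eb1 and Cd74. For the class II genes 5 cells held between 35.5% and 48.2% of the UMIs, and without them H2-Aa was at 26.8 CPM. Ido1, which breaks down tryptophan, was at 149 CPM in members and at most 25.6 CPM in the other 4 classes, with 0 UMIs in 336 immune cells, which allows a share of up to 0.893% of cells with a UMI at their depth. It had a UMI in 62.6% of members, or 28.2% at 5000 UMIs a cell against 6.98% of Msmb-high cells. Interferon-stimulated genes were measured as a list of their own, and 4 of 12, namely Isg15, Ifit3, Gbp2 and Ido1, were at least 2-fold higher than in secretory luminal cells with 0 lower. Isg15 was at 124 CPM in members against at most 71.1 CPM in the other 4 classes and 610.2 CPM in immune cells. A few cells carried it, since 5 members held 45.7% of the Isg15 UMIs and without them the level was 67.9 CPM. The top 5 cells likewise held 58.2% of the UMIs of Ifit3, 41.0% of those of Gbp2 and 26.0% of those of Ido1.

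Other lists moved in part or hardly. All 4 measured Ly6 family genes apart from Ly6d were at least 2-fold higher than in secretory luminal cells, Ly6e at 3879 CPM against at most 2360.1 CPM and Ly6c1 at 786 CPM against at most 423 CPM in the other 4 classes. The lysosomal protease genes Ctsb, Ctsd and Ctsh were higher, 3 of 8 cathepsins. Of 8 retinoid genes 3 were higher, among them the retinoic acid target Stra6 at 20.7 CPM, and 1, Crabp1, was lower. Basal cells had more Stra6 than members, at 28.9 CPM. Tight junction genes passed the limit only for Cldn1, upward, and Cldn10, downward, among 13. Lineage factors passed it for 1 gene upward, Runx1, and for 2 downward, Hoxb13 among them, of 16, and immediate-early genes for Dusp1 upward and Atf3 downward among 12. Androgen-regulated genes were likewise mixed, with 1 of 12 higher and 2 lower.

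Secretory genes were lower in members. Of 8 distal markers 6 were at least 2-fold lower than in secretory luminal cells and 0 higher. Hoxb13, a homeobox factor of the prostate, was at 44.0 CPM against 239.6, 179 and 121 in the ventral-type, dorsal-type and Msmb-high classes. Members kept sizeable secretory RNA: Defb50, a beta-defensin, was at 7975 CPM against 428 in immune cells, and Tgm4 at 665 against 56.4. Spink1 cannot be read this way, since members had 590.2 CPM, with 48.8% of it in 1 cell, and immune cells 717 CPM. Msmb at 367 and Pbsn at 156 CPM were under 2-fold above immune cells, at 217 and 94.8 CPM, and both genes were limited by the rule. The lowest genes against all 3 secretory classes by the naming rule were 9530002B09Rik, Gpx3, Egf, Copz2, Herpud1, Hoxb13, Bmpr1b, Hacd2, Rab3d and Nudt22. Gpx3, a secreted glutathione peroxidase, was at 52.0 CPM against 649.7, 515 and 258. Herpud1, a gene of endoplasmic reticulum stress, was at 117 CPM against 381, 466 and 369. Mucosal defence genes were lower too, 6 of 11 by at least 2-fold with 1 higher. That 1 was Ltf, at 14.8 CPM with 50.8% of its UMIs in 1 cell.

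Against basal cells the picture turned for several lists. The 7 basal genes were all at least 2-fold lower in members, with a median of -3.99; the basal keratin limit of the rule bears on these. Over all 9099 genes, 15% were at least 2-fold higher and 14.9% lower. Trp63 was at 0.226 CPM in members and 13.7 in basal cells, and Krt17 at 134 against 2132. Stratified epithelium genes split, with Krt6a, Sprr1a, Sprr2a3 and Sbsn higher and Krt16, Lor, Krt10 and Lypd3 lower. Of 12 measured chemokine and cytokine genes 8 were lower and 0 higher, among them Csf3 at 1.78 against 109 CPM and Cxcl2 at 86.8 against 295 CPM. Of these 8 only Cxcl1 and Cxcl2 reached 5 CPM in members, and the rest entered through basal cells alone. Immune cells had 3971 CPM of Cxcl2. Of 6 measured Wnt targets 6 were lower, including Ccnd1 at 48.2 against 459.9 CPM. Of these 6 only Ccnd1 and Myc reached 5 CPM in members. The rest entered through basal cells alone and could not have come out higher. Simple keratins, 5 of 6, and distal secretory genes, 6 of 7, were higher in members.

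**Figure D3:**
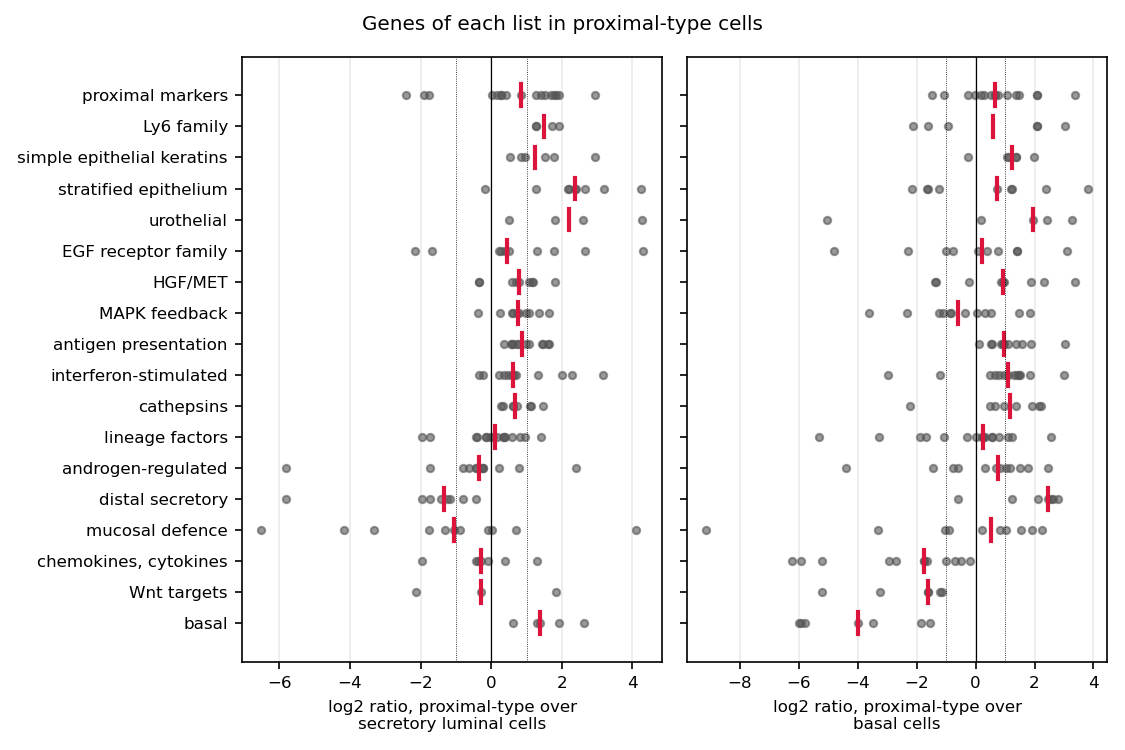
Log2 ratio of each listed gene in proximal-type cells over secretory luminal cells (left) and over basal cells (right), for genes with at least 5 CPM in either class; grey points are genes, red bars the median of the list, dotted lines mark 2-fold. Stratified epithelium genes lie mostly to the right of 2-fold in the left panel (8 of 9) and fall on both sides in the right panel, and basal genes lie to the left of 2-fold in the right panel (7 of 7).

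The genes highest in members over each of the other 4 classes at once, apart from those above, were Serpinb9, Sbspon, Bex1, Mal, Sdcbp2, Kctd14, Hamp, Obfc1, Fxyd4, Sema7a, Mxd1, 2610035D17Rik and Svs4. Plat, the tissue plasminogen activator and also among the 20, was at 788 CPM against at most 195 CPM in the other 4 classes. Serpinb9, an inhibitor of granzyme B, was at 57.5 CPM against at most 11.6 CPM in these classes, and was higher still in immune cells, at 193 CPM. Mal, a protein of apical membrane sorting, was at 228 CPM against at most 81.6 CPM. Hamp, the iron hormone hepcidin, was at 270.2 CPM against at most 107 CPM. Svs4 rests on 1 cell, which held 91.0% of its UMIs.

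Members were not uniform. Leiden clustering of the 803 cells gave 6 sub-clusters of 182, 175, 131, 131, 130 and 54 cells, numbered by size. Their leading genes are the genes that defined them, so they are given as a description. Sub-cluster 1 was led by C1rb, Pate4, Tgm4, 9530053A07Rik, the class II genes H2-Eb1 and H2-Aa, the leukocyte antigen gene Cd52 and A630095E13Rik. The 8 immune markers summed to 24.96 CPM there and to between 3.59 and 9.49 CPM in the other sub-clusters, and their part in the class II values was not tested. There 5 cells held 65.5% of the H2-Aa UMIs and 71.8% of the H2-Eb1 UMIs, and without them the levels were 40.3 and 24.2 CPM. Tgm4 was at 1932 CPM there and 264 in other members, whereas Pate4 dropped from 400.5 to 4.16 CPM when 1 cell was left out. Its Defb50 level was 12141 CPM, the highest of the 6, against 3469 CPM in sub-cluster 5, the lowest. Sub-cluster 2 was led by Hspa1a, a heat shock protein, and by Tnfaip3, Ivl, Tm4sf1, Gadd45b, Sema3c, Serpinb6b and F3, the tissue factor gene, at 949 against 388 CPM. Of the Hspa1a UMIs in it 58.0% lay in 5 cells, and without them Hspa1a was at 58.1 CPM. Sub-cluster 3 was led by the seminal vesicle genes Svs4, Svs2 and Svs5 only through 1 cell: without it they stood at 2.35, 27.5 and 24.6 CPM, and Crisp1 at 0.838. Stmn1, Stra6, Ereg and Ecscr remained, with Ereg at 189 against 60.2 CPM. Sub-cluster 5 was led by Fcgbp, Hamp, Mall, Psca, Hamp2, Lipe, Scnn1a and Camk1, and had the highest Psca, at 3115 CPM, and the highest Clu, at 62822 CPM.

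Sub-cluster 6 stood apart on quality. It held 16 of the 19 members that Scrublet marked, and its leading genes Igfbp6, Cxcl14, Sparc, Apod, Dcn, Lgals1 and Mgp are common in stromal cells, with Krt20 beside them. A few of the 54 cells carried several of these, as 1 cell held 63.1% of the Sparc and 58.3% of the Krt20 UMIs, and 5 cells held 82.3% of the Igfbp6 and 82.4% of the Mgp UMIs, while 79.6% of the cells had a Dcn UMI. The 6 fibroblast markers summed to 392 CPM there and to between 6.54 and 10.7 CPM in the other sub-clusters, and Dcn was at 312 CPM. Basal cells also held Dcn, at 1075 CPM. The basal keratins were highest in sub-cluster 6 as well, Krt15 at 425, Krt14 at 208 and Krt5 at 72.4 CPM. In the other sub-clusters they reached at most 60.2, 14.7 and 6.11 CPM. Whether the cells of sub-cluster 6 were doublets was not tested beyond the Scrublet marks. Without these 54 cells, 749 members remained, Dcn moved from 31.2 to 7.16 CPM and Col17a1 from 7.58 to 3.41 CPM, and the counts of genes over secretory luminal cells became 669 higher and 301 lower in place of 665 and 288.

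Sub-cluster 4 was led by interferon-stimulated genes, which cells switch on after type I or II interferon. Its leading genes were Ifit3b, Ifit3, Rsad2, Ifit1, Cmpk2, Cxcl10, Isg15 and Ccl5. Isg15, a ubiquitin-like modifier, was at 557 CPM there against 28.4 in other members, and the antiviral enzyme gene Rsad2 at 235 against 7.15. Ifit3 and Ifit3b, at 83.2 and 57.5 CPM, are near-identical copies whose reads can be shared between them. Without its top cell Ccl5 dropped from 57.8 to 18.5 CPM, and Isg15 from 557 to 473 CPM. Without its top 5 of 131 cells Isg15 was at 258 CPM, Rsad2 at 95.4 and Cxcl10 at 18.6, against 5.90 CPM of Cxcl10 in other members. Only 61.8% of the cells of sub-cluster 4 had an Isg15 UMI, so a minority of its cells carried most of these values. The 14 listed interferon genes summed to 2411 CPM in sub-cluster 4, 736 in sub-cluster 6 and between 357 and 401 in the others. Ido1 and Sprr2a3 were also highest in sub-cluster 4, at 373 and 1160.1 CPM, and hMETtg was lowest of the 6, at 578 CPM against 919.6 in sub-cluster 1. Immune cells had 610.2 CPM of Isg15 and 4235 CPM of Ccl5, while the immune markers summed to 7.99 CPM in sub-cluster 4. Clu, at 42261 CPM, and Krt7, at 603 CPM, were within the range of the other sub-clusters, while Ly6d was the lowest of the 6, at 237 CPM against 1182 in sub-cluster 3.

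**Figure D4:**
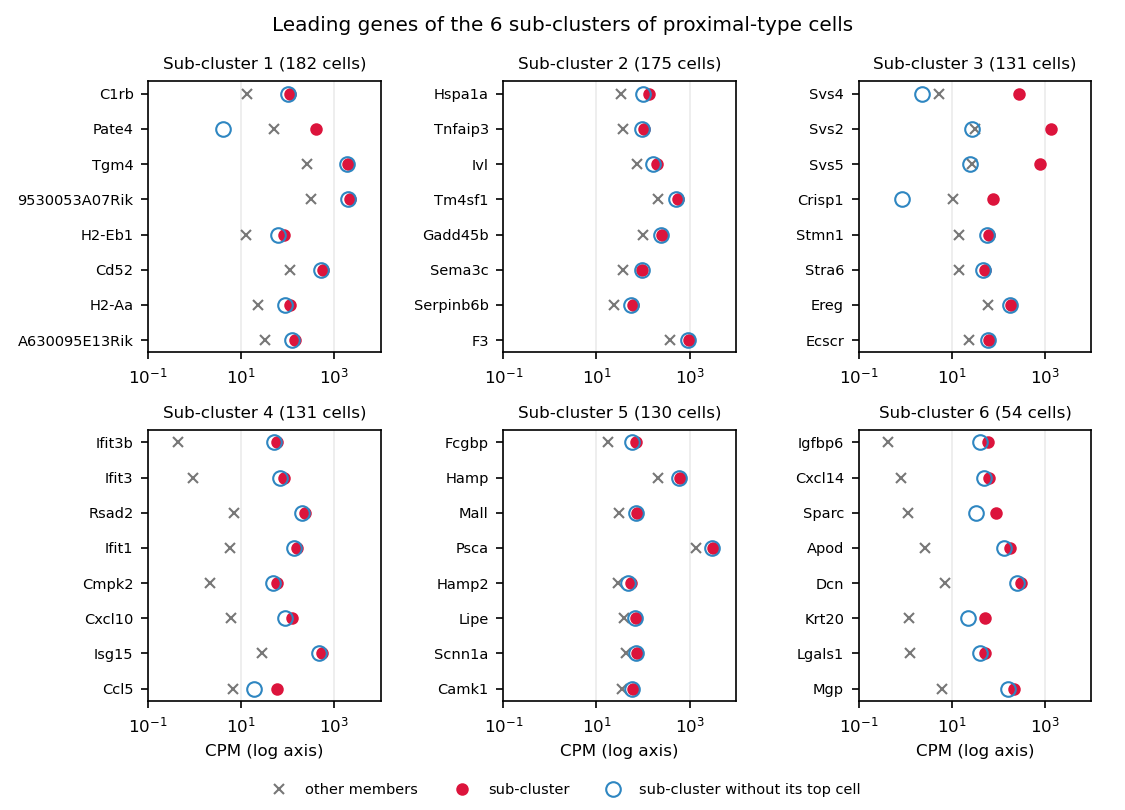
Leading genes of each of the 6 sub-clusters as CPM on a log axis: filled red points for the sub-cluster, open blue circles for the same cells without the cell that held most UMIs of the gene, crosses for the other members. In sub-cluster 3 the open circles of Svs4, Svs2, Svs5 and Crisp1 fall far below the filled points, whereas in sub-cluster 4 those of Isg15 and Ifit3 stay beside them.

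The promoters of these leading genes were read for the letters GAAANNGAAA, the core of the interferon-stimulated response element, on either strand, in RefSeq windows from 250 bases before to 50 bases after the gene start (GRCm38.p6). Windows were found for 7 of the 8 genes, and 6 of those 7 held the letters. They occurred in 1131 of 32851 windows of this length (3.44%). The match nearest the start is shown for 5 of the genes, 30 bases each, 5′ to 3′ on the strand of the gene, with the motif in capitals. For Ifit1, Ifit3 and Rsad2 the motif lies on the opposite strand and so reads as its reverse complement, TTTCNNTTTC.
Isg15 (chr4:156200865-156200894, minus strand, 66 bases before the start): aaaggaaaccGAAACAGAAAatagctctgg
Cxcl10 (chr5:92349083-92349112, minus strand, 213 bases before the start): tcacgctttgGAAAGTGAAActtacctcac
Ifit1 (chr19:34640794-34640823, plus strand, 85 bases before the start): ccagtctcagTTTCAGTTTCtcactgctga
Ifit3 (chr19:34583397-34583426, plus strand, 122 bases before the start): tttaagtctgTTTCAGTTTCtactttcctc
Rsad2 (chr12:26456553-26456582, minus strand, 120 bases before the start): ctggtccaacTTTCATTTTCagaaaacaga
The Cmpk2 window held no such letters. Of the 12 interferon list genes with a window, 9 held them. A match describes the sequence only, and binding was not measured.

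Members were also split by whether an hMETtg UMI remained after thinning to 5000 UMIs, as 711 positive and 91 negative cells. With all UMIs 782 of the 803 members had one, so the split compares higher with lower hMETtg. Immune cells also held some hMETtg, so a UMI at full depth does not show that a negative cell expressed it. Endogenous Met was at 219.7 CPM in positive and 92.3 CPM in negative members, a log2 ratio of 1.25 (interval 0.80 to 1.74). Of 16 measured proximal markers 4, namely Krt4, Ppp1r1b, Cyp2f2 and Nupr1, were at least 2-fold lower in positive members and 0 higher, while Clu was at 43979.5 and 35064 CPM. Of 13 measured interferon genes 7 were at least 2-fold lower in positive members and 0 higher, while 1.77% of all 8796 genes were higher and 7.5% lower. These counts, 156 and 660, became 277 and 633 when the split and the sums used all UMIs, and 129 and 3005 among members with at least 5 rule genes. Sums under 3 UMIs were set to 3, which stood for more CPM in the smaller negative group than in the positive group. Genes of low level could therefore hardly be called higher. With at least 5 rule genes, a gene with 0 UMIs in negative members could even be called lower, so the excess of lower genes was partly set by this limit. The 5 genes that the study followed as β-catenin targets had 0 higher and 0 lower, with a median of 0.19, which was -0.14 with all UMIs. The interferon values rest on few cells. In negative members 1 cell held 71.4% of the Ifit1 UMIs and 72.7% of the Rsad2 UMIs, and 3 cells held all of Ccl5. Without the top 5 cells of each group the direction turned, with Isg15 at 55.5 CPM in positive and 34.9 CPM in negative members and Rsad2 at 9.07 and 2.33 CPM. With all UMIs Isg15 turned to 0.93 and Ifit1 to 1.45 on the log2 scale, that is, higher in positive members. The other extremes by the naming rule were Krt16, Cxcl2, Hamp, Svs2 and Pate4 upward and Cxcl9, Wfdc18 and Gpx2 downward. Of these Hamp had 310.3 against 74.7 CPM. Single cells carried others, as 1 positive cell held 78.7% of the Svs2 and 69.6% of the Pate4 UMIs of its group, and 1 negative cell 90.6% of the Cxcl9 and 55.6% of the Wfdc18 UMIs.

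Cycling cells were rare. Members with UMIs from 3 or more of the 15 proliferation genes numbered 9 of 802 after thinning (1.12%, interval 0.514% to 2.12%), against 0.564% of secretory luminal cells and 1.31% of basal cells. Ribosomal protein genes did not differ by 2-fold in 81 of 81 measured cases over secretory luminal cells, with a median of 0.09.

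The same rule picked 2543 TripleTg cells, 33.1% of 7687 epithelial cells (32.0% to 34.1%), with a median of 34094 UMIs. Levels of the rule genes differed between the libraries for some genes and not for others. Psca was at 1629 CPM in DoubleTg members and 88.6 in these TripleTg cells, while Ly6d was at 616 and 7215 CPM. Ly6d also reached TripleTg immune cells, at 314 CPM with a UMI in 92.2% of them, which is the background beside its count. This background could help a TripleTg cell to meet the rule, and how far it did was not tested. The shares of the libraries are therefore not like for like. Areg was alike, at 908 and 897 CPM. With 1 library a side, genotype, mouse and library cannot be told apart in any of the values that follow, and 12.5% of 8990 genes were at least 2-fold higher in DoubleTg members and 11% lower.

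Transgene, antigen presentation and prostate secretory RNA were higher in DoubleTg members. The hMETtg level was 798 against 34.0 CPM, the share of thinned cells with a UMI 88.7% against 14.0%, and Met 201 against 61.5 CPM. B2m was at 7700.3 against 432 CPM, and immune cells of the libraries had nearly the same B2m, at 2341 and 2323 CPM. In the antigen presentation list 11 of 12 genes were higher and 0 lower. Distal secretory genes were higher in 7 of 7, with Defb50 at 7975 against 40.2, Mme at 186 against 1.24 and Tgm4 at 665 against 72.7 CPM. The 7 include Spink1, which cannot be read in members, as 1 cell held 48.8% of its UMIs and DoubleTg immune cells had more. Azgp1, Apof and Mme were under 5 CPM in TripleTg cells and entered through members alone. Clu was at 42602 against 6371 CPM and Ido1 at 149 against 8.22.

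Wnt targets, seminal vesicle genes, alpha-defensins and proliferation genes were lower in DoubleTg members. Of 11 measured Wnt targets 9 were lower and 0 higher, with Axin2 at 2.29 against 79.1 and Nkd1 at 0.170 against 52.4 CPM. Each of these 9 was under 5 CPM in members. They entered through the TripleTg cells alone and could not have come out higher, so the count describes their levels only. The alpha-defensin gene Defa22 had 0 UMIs in members and 1471 CPM in TripleTg cells, at least 17334-fold higher there when 0 is read as 3 UMIs over the group. Svs5 was at 156 against 5222 CPM, or 26.2 CPM without the 1 member that held 83.3% of its UMIs, and TripleTg immune cells held 997 CPM of it. Of 13 measured proliferation genes 11 were lower, Mki67 at 1.73 against 12.2 CPM, and 6.42% of thinned TripleTg cells were cycling. Of these 11 only Ube2c, at 5.21 CPM, and Tyms, at 7.58 CPM, reached 5 CPM in members, and the rest entered through TripleTg cells alone. Chemokine and cytokine genes were lower in 11 of 13, for example Il33 at 0.594 against 37.7 CPM. Of these 11 only Cxcl1, Cxcl2 and Tnf reached 5 CPM in members, and the rest entered through TripleTg cells alone. The 8 immune markers summed to 104 CPM in these TripleTg cells against 11.1 CPM in members, and the 6 fibroblast markers to 157 against 38.6 CPM, with 4 of 4 measured ones lower in members. Of these 4 only Dcn reached 5 CPM in members. The part of either list in the chemokine values was not tested. Stratified genes split again, with Krt6a and Sprr1a higher in DoubleTg members and 7 of 11 lower, among them Sprr2a3 at 531 against 3038 CPM. The further extremes by the naming rule, with log2 ratios of 5.72 to 9.94 upward and of -13.73 to -10.48 downward, were 5430419D17Rik, Erdr1, Atp6v1c2, Gm5615, 9530002B09Rik, Azgp1, Apof and Tcaf2 upward and Defa21, Gm15293, Gm14850, Gm10104, Defa5, Svs6, Cryba4, Sftpc and Hbb-bt downward. The alpha-defensin genes are close copies whose reads can be shared. Hbb-bt, a globin gene, was at 121 CPM in TripleTg rule cells and 84.5 CPM in TripleTg immune cells.

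**Figure D5:**
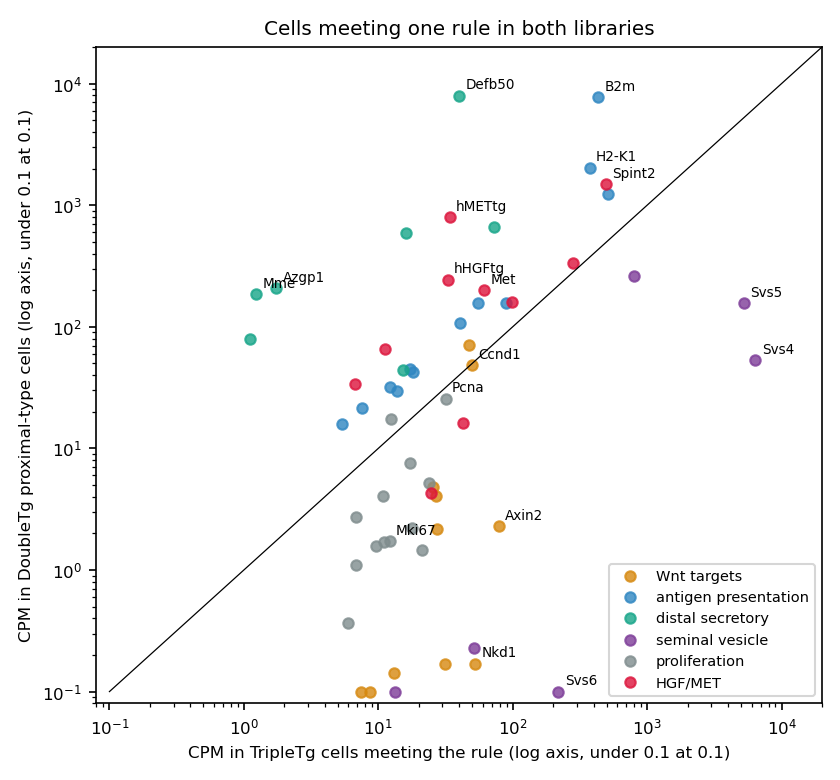
CPM of listed genes in DoubleTg proximal-type cells (vertical) against TripleTg cells picked by the same rule (horizontal), both on log axes with values under 0.1 drawn at 0.1; colours mark gene lists and the line marks equal levels. Antigen presentation (B2m, H2-K1) and distal secretory genes (Defb50, Mme) lie above the line, Wnt targets (Axin2, Nkd1) and seminal vesicle genes (Svs4, Svs5) below it, with 1 library on each axis.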

How the data were processed

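The authors made 10x Genomics 3′ libraries of 1 DoubleTg and 1 TripleTg prostate tumour and counted UMIs with Cell Ranger (6.0.2 in the submitters' processing notes, 6.1.1 in the header of the DoubleTg matrix) on mm10 with the transgenes added. The deposited values are raw counts of UMIs per gene and cell. The TripleTg matrix held no cell outside the limits on genes and mitochondrial UMIs given in the report, while 12072 DoubleTg cells were reduced to 10598 here. These DoubleTg counts differ from those in the study's methods. Members, comparison classes and gene lists were chosen with earlier results of these data known.

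Counts were summed per class and divided by the class total. Intervals are 95% exact Poisson for sums, conditional binomial for ratios and Clopper-Pearson for shares. They cover counting error only. A gene entered a comparison at 5 CPM or more in either group, sums under 3 UMIs were set to 3, and a 2-fold ratio was the limit for naming it higher or lower. A gene under 5 CPM in 1 group entered only through the other and could hardly be called higher in the first. No test was run, since each genotype had 1 library. Beyond the listed genes, names were given to the 20 genes highest over all 4 other classes and the 10 lowest against the secretory classes, the 5 highest and 5 lowest by hMETtg, the 10 highest and 10 lowest against TripleTg, and the 8 leading genes of each sub-cluster, at 50 CPM or more. Shares and the hMETtg comparison used cells thinned at random to 5000 UMIs, leaving out shallower cells (1 member, 87 ventral-type, 80 dorsal-type, 186 Msmb-high, 137 basal and 58 immune cells). Sub-clusters came from scanpy 1.11.5 with 2000 variable genes, 20 components, 15 neighbours and a resolution of 0.5. Scrublet, at an expected rate of 8%, marked 333 DoubleTg cells and 0 TripleTg cells, so doublets were not called in the latter, and marked cells were kept. Names of repeated symbols in the DoubleTg file followed gene identifiers. Numbers were computed with Python 3.11.15, numpy 2.4.6, scipy 1.17.1 and pandas 2.3.3, and ratios were checked on simulated counts. Some listed genes are not reported here.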

Additional observations from a re-analysis of the deposited data

How the results depend on the processing

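No paired analysis was possible because each genotype had 1 library. Alternatives were 5000 UMIs a cell, all UMIs, at least 20 CPM, at least 3 or 5 of the 6 rule genes, no Epcam limit, smaller secretory limits, centring on the median ratio, means over cells and leaving out Scrublet marks. Leaving out sub-cluster 6 was added after seeing the data. The number of members was 422 with at least 5 rule genes and 1218 with at least 3, and the share with hMETtg, 97.4% with all UMIs, was 99.1% with at least 5 rule genes and all UMIs and 88.7% for all members at 5000 UMIs. At 20 CPM the counts higher and lower were 384 and 122 over secretory luminal cells, 771 and 761 over basal cells, 72 and 154 by hMETtg, and 605 and 527 over TripleTg cells, since fewer genes were tested. Centring gave 439 lower over secretory luminal cells and 239 higher by hMETtg. For hMETtg, all UMIs gave 277 higher and at least 5 rule genes 3005 lower. Signs turned for 8 list medians. Over secretory luminal cells centring took lineage factors from 0.11 to -0.14 and ribosomal protein genes from 0.09 to -0.16. Over basal cells 5000 UMIs took mucosal defence from 0.52 to -0.14 and stratified genes from 0.71 to -0.11, and 20 CPM took MAPK feedback genes from -0.60 to 0.048. Over TripleTg cells 20 CPM took MAPK feedback genes from -0.20 to 0.36. For hMETtg with all UMIs, mucosal defence turned from -0.30 to 0.40, the study's Wnt genes from 0.19 to -0.14, Ifit1 to 1.45, Ifit3 to 1.94, Isg15 to 0.93, Ltf to 1.42 and Rsad2 to 1.12. Over TripleTg cells at least 5 rule genes gave 0.088 for Cxcl15 and 0.22 for Svs2. The cause of these reversals was not tested. The negative group of the hMETtg comparison held 455000 UMIs. Setting sums under 3 UMIs to 3 therefore bore on its counts, most of all with at least 5 rule genes.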

Other observations

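Other gene groups also differed among the sub-clusters of members, again as a description of 1 library. The 12 immediate-early genes summed to 3881 CPM in sub-cluster 2 and to between 2123 and 2846 CPM in the others. The 15 proliferation genes summed to 143 CPM in sub-cluster 3, led by Stmn1 and Ereg, and to between 50.9 and 71.7 CPM in the others. Few cells carried such genes, since 5 of the 803 members held 45.9% of the Mki67 and 62.0% of the Birc5 UMIs. Sub-cluster 3 also had the highest Ly6d, at 1182 CPM, and the highest Areg, at 1409 CPM. The 5 genes that the study linked to Wnt, which Mmp7 dominates, summed to 8024 CPM in sub-cluster 4, the lowest, and to 14863 CPM in sub-cluster 3, the highest. Endogenous Met was lowest in sub-cluster 4 as well, at 145 CPM against 264 in sub-cluster 2.

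Over the 802 thinned members, all from 1 library and with 5000 UMIs each, Clu and Ly6a had a Spearman correlation of 0.44, Mmp7 and B2m of 0.41 and hMETtg and B2m of 0.22, out of 120 pairs of genes computed.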
